A study of Mus musculus with 2 samples.

Results

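The Toll-like receptors Tlr2, Tlr3, Tlr4, Tlr7, Tlr9 and Tlr13, the co-receptor Cd14, the chaperone Unc93b1 and the adaptor Myd88 were followed across the immune cells of B16F10 tumours. They are 9 of the 24510 genes in the molecule table, chosen by name, and all 9 were found. The cells were CD45-positive cells sorted from subcutaneous tumours of female C57BL/6 mice, whose ages are not given in the sources used here. The tumours had grown from B16F10 cells, a pigmented mouse melanoma line, that were wildtype, Tyr knockout or Oca2 knockout, with 3 mice for each of the 3 genotypes. The knockouts lie in the tumour cells and not in the host, and whether each knockout line is a single clone is not given in the sources used here. Each genotype received its own sample tag before all cells were pooled for 1 capture and 1 whole transcriptome library, and the mice of a genotype are not described as tagged apart. Neither the labels nor the tag calls name the genotype behind tags 8, 9 and 10, and the series' own text describes suspensions from the Tyr knockout and wildtype tumours only. The tags were therefore used as 3 samples of unnamed genotype, and no genotype was compared with another.

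Toll-like receptors are pattern recognition receptors of innate immunity. Tlr2 and Tlr4 sit at the cell surface and bind bacterial lipoproteins and lipopolysaccharide, which Cd14 hands to them, while Tlr3, Tlr7, Tlr9 and Tlr13 sit in endosomes and bind double-stranded RNA, single-stranded RNA, unmethylated CpG DNA and bacterial ribosomal RNA. Unc93b1 is the membrane protein that carries the nucleic acid receptors from the endoplasmic reticulum to the endosome. Myd88 is the adaptor that links all of these receptors except Tlr3 to the IRAK kinases and NF-kB, and Tlr3 signals through Ticam1 instead. In tumours, macrophages and dendritic cells are the classes best known for these receptors, with Tlr3 textbook knowledge for type 1 conventional dendritic cells (cDC1) and Tlr7 and Tlr9 for plasmacytoid dendritic cells (pDC).

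On GRCm38 with the GENCODE vM21 annotation, each member is a protein-coding gene. Tlr2 lies at chr3:83836272-83841767 on the minus strand, Tlr4 at chr4:66827584-66930284 on the plus strand and Tlr3 at chr8:45395665-45411080 on the minus strand. Tlr7 lies at chrX:167304929-167330558 on the minus strand, Tlr13 at chrX:106143204-106160493 on the plus strand and Tlr9 at chr9:106222598-106226883 on the plus strand. Unc93b1 lies at chr19:3935186-3949340 on the plus strand and Myd88 at chr9:119335934-119341411 on the minus strand. Molecules are counted per gene, so splice forms and exons are not told apart.

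The upstream sequences of Tlr2 and Tlr13 are shown because both receptors belonged to the phagocyte pattern described below, and because they differ in the motif they hold. They are from RefSeq's promoter table (GRCm38.p6), which matched 5 of the 9 members, and each is printed from 250 bases before the table's start site to the last base before any GENCODE vM21 exon of the gene. The Tlr2 stretch is the minus strand of chr3:83841768-83841858 and the Tlr13 stretch is the plus strand of chrX:106143025-106143203, both given 5′ to 3′ with the motif match in capitals.
Tlr2: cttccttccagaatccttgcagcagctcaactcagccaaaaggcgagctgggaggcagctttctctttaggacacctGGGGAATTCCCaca
Tlr13: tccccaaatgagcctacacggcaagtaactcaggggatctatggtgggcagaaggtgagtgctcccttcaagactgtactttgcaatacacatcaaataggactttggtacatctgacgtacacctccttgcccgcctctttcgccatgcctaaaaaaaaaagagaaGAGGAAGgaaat
The capitals in Tlr2 mark overlapping matches to the NF-kB consensus, which 7.25% of 32851 mouse promoter windows of 250 bases hold on either strand. In Tlr13 they mark the PU.1 core GAGGAAG, which 10.6% of those windows hold on either strand. In the full windows of 250 bases, the Tlr9 window also held GAGGAAG, the Tlr3 window the NF-kB consensus, and the Myd88 window the interferon regulatory factor motif, which is GAAA, NN and GAAA in a row, found in 2.98% of windows. The Tlr3 window begins within a GENCODE vM21 exon of the gene, so none of it precedes the gene's annotated exons. These matches describe letters in a window and were not tested for binding.

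Of 14899 cells, 10491 carried a single tag, at least 200 genes and at most 25% mitochondrial molecules, namely 3336, 3486 and 3669 cells in tags 8, 9 and 10, with a median of 3489 molecules per cell. No cell index occurred more than once (0 of 14899). Gates on the raw counts of other genes placed 6103 cells in 13 classes, of which 3786 were macrophages, monocytes, granulocytes, dendritic cells or B cells. A further 89 cells met more than 1 gate and were left out, and 4299 (41.0%) met none. The C1q macrophage gate held 1314 cells, the Arg1 macrophage gate 224, the monocyte gate 647, the neutrophil gate 425, the cDC1 gate 155, the type 2 conventional dendritic cell (cDC2) gate 185, the gate of mature Ccr7+ Fscn1+ dendritic cells (CCR7 DC) 240, the pDC gate 112, the B cell gate 241 and the T cell gate 2230. Median depth differed between them, from 2150 molecules in neutrophils and 2270 in B cells to 9965 in C1q macrophages and 12560 in cDC1. Among markers kept out of the gates, Apoe, Ms4a7 and Mrc1 were highest in C1q macrophages, Spp1 and Vegfa in Arg1 macrophages, G0s2, Mmp9 and Il1r2 in neutrophils, Wdfy4 and Naaa in cDC1, Mgl2 and Clec10a in cDC2, Ccl22 in CCR7 DC, Tcf4 and Spib in pDC and Pax5 and Ebf1 in B cells. Ccr2 and Ms4a4c were highest in monocytes. Some of the other listed markers were higher in another gate. In CCR7 DC, Flt3 stood at 292 CPM against 73.9 in cDC2, and Ccl17 at 262 against 168. In pDC, Irf8 stood at 2096 CPM against 1001 in cDC1, and Plac8 at 3417 against 2457 in monocytes. Hp, listed for monocytes, was highest in neutrophils. Adgre1 (C1q and Arg1 macrophages), Cd24a (cDC1) and Retnlg (neutrophils) were highest in the gate on Siglecf, Ccr3 and Il5ra. The gate on Siglecf, Ccr3 and Il5ra, with 243 cells and a median of 1398 molecules, went against its intended name: the eosinophil gene Epx had 0 molecules and Ear1 had 3, although Prg2 (319 CPM) and Alox15 (952 CPM) were highest there. The neutrophil gene Retnlg stood at 6164 CPM in it, and S100a8 plus S100a9 stood at 4264, 277 and 2690 CPM. Its cells are called Siglecf/Ccr3 granulocytes below.

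Levels are counts of molecules scaled to 1000000 molecules (CPM) over all cells of a gate within a tag, always given in the order of tags 8, 9 and 10, and they are compared between gates for a gene and not between genes. A limit of 3 counts over the 3 tags is given where a gate held no molecule. Intervals and such limits cover counting error only. A fold against such a limit takes the count of the other gate as it is, without its error, and is not a lower bound.

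Tlr2, the receptor for bacterial lipoproteins, had its highest means in neutrophils, monocytes and macrophages. It stood at 691, 547 and 520.2 CPM in neutrophils and at 585, 608 and 474 CPM in monocytes, with overlapping tags. Arg1 macrophages held 460.5, 437 and 245 CPM and C1q macrophages 362, 404 and 364 CPM, again overlapping each other, and all 3 tags of C1q macrophages lay under all 3 tags of monocytes. Siglecf/Ccr3 granulocytes spread over 264, 41.9 and 125 CPM, overlapping Arg1 macrophages and cDC2. Among dendritic cells, cDC2 held 175, 111 and 120.4 CPM, cDC1 66.3, 30.7 and 38.1 CPM, CCR7 DC 13.5, 23.5 and 22.0 CPM and pDC 0, 21.3 and 21.7 CPM. B cells held 32.8, 24.2 and 74.4 CPM. T cells, which were read as a measure of free RNA, held 27.7, 17.1 and 18.4 CPM, a range that overlaps those of B cells, CCR7 DC and pDC. With every cell thinned to 1000 molecules, at least 1 Tlr2 molecule was found in 37.0% of monocytes (exact 95% interval 33.2 to 40.9), 35.1% of neutrophils, 28.1% of Arg1 macrophages and 14.1% of cDC2, against 1.895% of T cells, 1.80% of pDC and 1.67% of CCR7 DC. The shares in pDC and CCR7 DC do not exceed that in T cells and were read as background. Unthinned, the shares were 71.1% of monocytes, 54.4% of neutrophils and 7.53% of T cells.

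Cd14, which binds lipopolysaccharide and passes it to Tlr4, was highest in neutrophils, at 5748, 7875 and 6569 CPM. Arg1 macrophages held 3061, 3365 and 2657 CPM, monocytes 3029, 2996 and 2088 CPM and C1q macrophages 2259, 2565 and 1855 CPM. Every neutrophil tag lay above every tag of the other gates, and the ranges of monocytes and of both macrophage gates ran into one another in that order. Siglecf/Ccr3 granulocytes spread from 469.8 CPM in tag 9 to 1503 and 1533 CPM in tags 10 and 8. Their S100a8 plus S100a9 level was also lowest in tag 9, and the part of that in the Cd14 level was not tested. In dendritic cells Cd14 stood at 618, 635 and 466 CPM in cDC2, 226, 328 and 102 CPM in cDC1 and 82.6, 55.6 and 60.1 CPM in CCR7 DC. In pDC it ran from 69.1 and 133 CPM to 435 CPM in tag 10, a tag in which Cxcl2 stood at 3935 CPM against 583 and 809, and G0s2, Mmp9 and Il1r2 together at 440.2 CPM against 34.6 and 37.2. The part of these myeloid transcripts in the pDC level was not tested. The sum of G0s2, Mmp9 and Il1r2 was higher in cDC2, at 1473, 1170 and 1024 CPM, than in any other dendritic gate. S100a8 plus S100a9 stood at 11.7, 9.47 and 44.6 CPM in cDC2. The part of these transcripts in the cDC2 levels was not tested. At 1000 molecules per cell, Cd14 was seen in 88.8% of Arg1 macrophages, 87.9% of neutrophils, 79.8% of monocytes, 73.3% of C1q macrophages and 30.8% of cDC2. T cells gave 7.13% (interval 6.09 to 8.28), B cells 8.37% and CCR7 DC 4.18%, and unthinned the T cell share was 19.4% against 92.0% of neutrophils.

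Tlr4, the signalling receptor for lipopolysaccharide, was sparse: all kept cells held 676 molecules of it. Neutrophils were again highest, with 51.8, 40.4 and 43.1 CPM from 27, 9 and 14 molecules. Arg1 macrophages held 27.1, 14.8 and 25.6 CPM, C1q macrophages 19.8, 12.98 and 19.4 CPM and monocytes 12.3, 16.0 and 13.4 CPM. The neutrophil tags lay above all tags of these gates, whose own ranges overlapped. No dendritic gate exceeded 4 molecules in all, and T cells held 1.52, 0.929 and 1.37 CPM. Thinned to 1000 molecules, 5.21% of neutrophils (interval 3.30 to 7.79) and 3.57% of Arg1 macrophages held a molecule, against 0 of 2216 T cells. Unthinned, the same shares were 9.65%, 14.3% and 0.538%, and these gates differ in depth as given above.

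**Figure D1:**
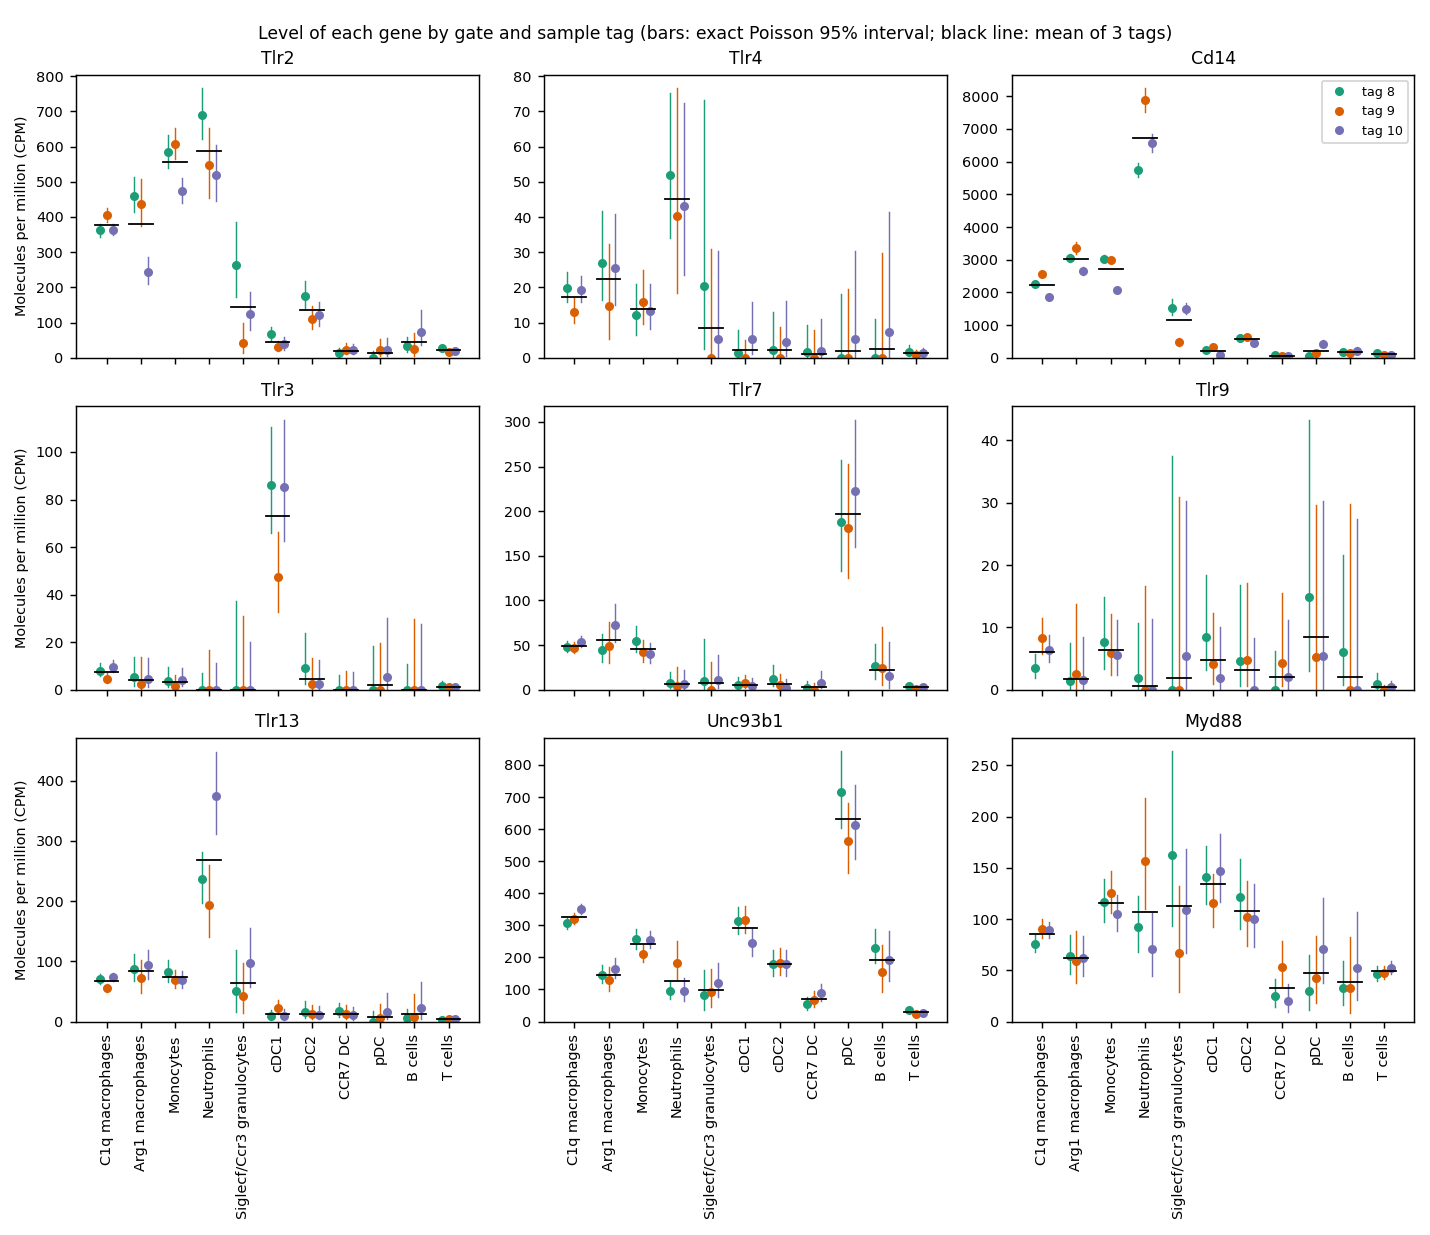
Level of each of the 9 genes (CPM, linear axis from 0) in 11 gates, with a point for each sample tag, its exact Poisson 95% interval and a black line for the mean of the 3 tags. Neutrophils lead for Tlr4, Cd14 and Tlr13, neutrophils and monocytes overlap at the top for Tlr2, cDC1 lead for Tlr3 and pDC for Tlr7 and Unc93b1, while Tlr9 rests on few molecules everywhere.

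Tlr3, the receptor for double-stranded RNA, was concentrated in cDC1. That gate made up 1.48% of the kept cells and held 36.5% of the 389 Tlr3 molecules. Its level was 86.1, 47.4 and 85.4 CPM from 61, 34 and 47 molecules. C1q macrophages followed with 8.05, 4.48 and 9.68 CPM, and cDC2 held 9.32, 2.37 and 2.23 CPM from 6 molecules, so the lowest cDC1 tag lay far above the highest tag of any other gate. Neutrophils, Siglecf/Ccr3 granulocytes, CCR7 DC and B cells held 0 molecules, which allows up to 2.81, 7.47, 1.92 and 5.05 CPM. In cDC1 a Tlr3 molecule was seen in 45.8% of cells unthinned and 4.52% (interval 1.83 to 9.08) at 1000 molecules, against 0.404% and 0.0451% of T cells.

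Tlr7, the receptor for single-stranded RNA, was highest in pDC, at 188, 181 and 223 CPM. Arg1 macrophages (44.7, 49.4 and 72.2 CPM), C1q macrophages (48.1, 47.0 and 53.4 CPM) and monocytes (54.9, 42.1 and 40.1 CPM) formed a second level with overlapping tags. B cells lay under it with 26.9, 24.2 and 14.9 CPM from 14 molecules. Neutrophils held 7.68, 4.49 and 6.16 CPM, and cDC1, cDC2 and CCR7 DC held means of 5.42, 6.21 and 3.23 CPM, close to the 2.80 CPM of T cells. A Tlr7 molecule was seen in 16.2% of pDC at 1000 molecules per cell (interval 9.90 to 24.4), 4.95% of C1q macrophages, 2.93% of B cells and 0.271% of T cells. Unthinned, the shares were 51.8%, 32.7%, 4.56% and 1.30%. C1q macrophages, 12.5% of the kept cells, held 45.2% of the 1612 Tlr7 molecules, and pDC, 1.07% of the cells, held 7.01%.

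Tlr9, the receptor for CpG DNA, could hardly be measured here. All kept cells held 199 molecules, 44.2% of them in C1q macrophages. The pDC level of 14.8, 5.32 and 5.43 CPM rested on 3, 1 and 1 molecules, and that of B cells on 2 molecules in all. Monocytes held 7.57, 5.89 and 5.63 CPM and C1q macrophages 3.45, 8.26 and 6.34 CPM, so the tag ranges of pDC, monocytes and C1q macrophages overlapped. The gene fell under the count filter of the fit and was not tested. All 3 pDC tags lay above those of cDC2 (highest 4.74 CPM), CCR7 DC (4.27), Arg1 macrophages (2.47), neutrophils (1.92) and T cells (0.913), a separation that rests on 5 pDC molecules. The cDC1 gate, at 8.47, 4.19 and 1.82 CPM from 10 molecules, overlapped pDC. So did B cells (up to 5.97 CPM) and Siglecf/Ccr3 granulocytes (up to 5.44 CPM).

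Tlr13, which binds bacterial ribosomal RNA, was highest in the gate with the most Tlr4 and Cd14. Neutrophils held 236, 193 and 376 CPM. Arg1 macrophages had 88.0, 71.6 and 93.2 CPM, monocytes 82.3, 69.0 and 69.0 CPM, C1q macrophages 70.2, 55.2 and 74.1 CPM and Siglecf/Ccr3 granulocytes 50.8, 41.9 and 98.0 CPM. The lowest neutrophil tag was above the highest tag of these 4 gates, which overlapped one another in turn. The dendritic gates were low, with means of 13.3 CPM in cDC1, 13.1 in cDC2, 13.2 in CCR7 DC and 7.21 in pDC, against 3.51 in T cells. At 1000 molecules per cell, 20.1% of neutrophils (interval 16.4 to 24.3), 7.14% of Arg1 macrophages, 0.645% of cDC1 and 0.361% of T cells held a molecule. Unthinned, the T cell share was 2.15% and the neutrophil share 36.5%.

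Unc93b1 was broadly present and highest in pDC, at 716, 564 and 614 CPM. C1q macrophages (306, 320.0 and 349.9 CPM), cDC1 (312, 315 and 245 CPM) and monocytes (257, 210.4 and 254 CPM) came next, and B cells had 229.8, 153 and 193 CPM. The cDC2 gate was even across tags, at 179, 182 and 178 CPM. Arg1 macrophages held 145, 128 and 164 CPM, under every tag of C1q macrophages, and CCR7 DC 54.0, 68.4 and 88.1 CPM. At 1000 molecules per cell, Unc93b1 was seen in 43.2% of pDC, 27.8% of C1q macrophages, 27.7% of cDC1, 17.6% of B cells and 2.57% of T cells, and unthinned in 85.7%, 82.8%, 89.0%, 38.2% and 11.5%.

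Myd88 was found in every gate. The cDC1 gate held 141, 116 and 147 CPM, monocytes 116, 125 and 105 CPM and cDC2 121, 102 and 100.4 CPM, with overlapping tags. Siglecf/Ccr3 granulocytes spread from 67.1 to 162 CPM, neutrophils from 70.8 to 157 CPM, and C1q macrophages held 75.7, 90.2 and 89.3 CPM. Arg1 macrophages, at 63.7, 59.3 and 61.6 CPM, lay under all tags of C1q macrophages. The lowest levels among the 11 tested gates were in pDC (29.6, 42.6 and 70.6 CPM), B cells (32.8, 32.3 and 52.1 CPM) and CCR7 DC (25.3, 53.4 and 20.03 CPM), beside 46.3, 47.6 and 52.6 CPM in T cells. T cells use Myd88 themselves for interleukin signalling, so their level is no measure of free RNA for this gene. At 1000 molecules per cell, 17.4% of cDC1, 10.7% of monocytes, 4.56% of T cells and 2.70% of pDC held a molecule, and unthinned 70.3%, 40.5%, 21.6% and 22.3%.

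**Figure D2:**
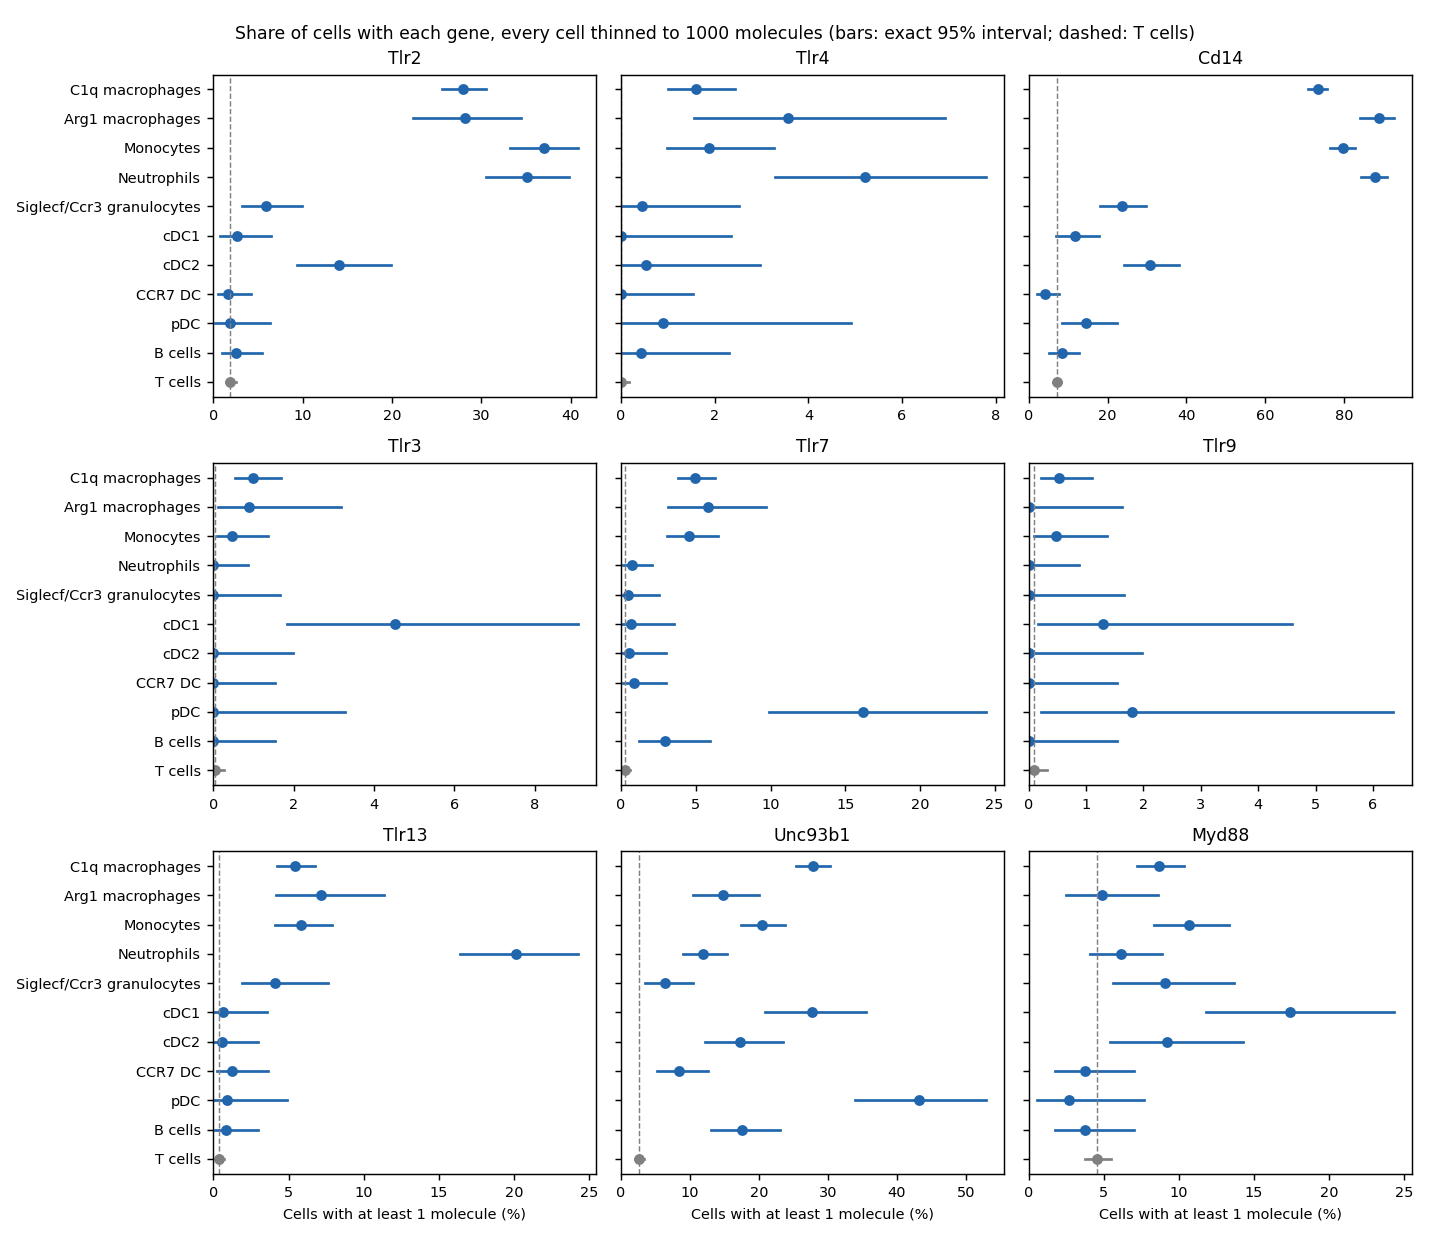
Share of cells (percent) with at least 1 molecule of each gene after every cell was thinned to 1000 molecules, in 11 gates, with exact 95% intervals and a dashed line at the T cell share. Cd14 reaches 88.8% in Arg1 macrophages and 87.9% in neutrophils, and Tlr13 stands apart in neutrophils at 20.1%.

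The gates were then compared in 7 contrasts fixed for these classes, with molecules summed per tag and gate and edgeR's quasi-likelihood test over 8456 genes, Tlr9 not among them. A gene was called at an adjusted p under 0.05 and a fold of at least 2, and errors are approximate standard errors from the fold and the F statistic. The 3 tags are the replicates, 3 pools of mice that also differ in tumour genotype. Differences shared by all gates of a tag were taken out by the block. The p-values therefore rest on how gate differences varied between tags, with the spread estimated over all 11 gates.

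Between C1q macrophages and monocytes, none of the 8 tested members was called by edgeR, where 4.33% of all genes were (2.67% higher and 1.66% lower), although 4 had an unadjusted p under 0.05, and DESeq2 called 0 too. The largest fold was that of Tlr3, with 112 molecules against 12, which was 2.26-fold higher (log2 fold 1.17 ± 0.42, 3 of 3 tags) with an edgeR adjusted p of 0.0810. Tlr2 had a log2 fold of -0.55 ± 0.20 (SE, n = 3 tags, lower in 3 of 3), with an edgeR adjusted p of 0.0857, and Unc93b1 one of 0.44 ± 0.16, higher in 3 of 3 tags, with an edgeR adjusted p of 0.0808. Of the 10 accessory and trafficking genes tested, 2 were higher and 0 lower. They were the DNA-degrading nuclease Dnase1l3 (10.6, 30.7 and 33.0 against 1.89, 9.26 and 6.34 CPM, log2 fold 2.03 ± 0.44) and the scavenger receptor Cd36 (606, 419 and 568 against 195, 109 and 192 CPM, 1.71 ± 0.31). No other Toll-like receptor (0 of 4), adaptor or kinase (0 of 16), transcription factor (0 of 9) or negative regulator (0 of 10) was called by edgeR or DESeq2. Of these, 0, 2, 6 and 1 had an unadjusted edgeR p under 0.05.

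Arg1 macrophages held less of the chaperone of the nucleic acid receptors than C1q macrophages. Unc93b1 was 2.02-fold lower in them (log2 fold -1.01 ± 0.18, edgeR adjusted p = 0.000143, lower in 3 of 3 tags), the 1 member called of 8, where 5.24% of all genes were called, 2.41% higher and 2.83% lower. That fold sits on the 2-fold line: it ran from -1.15 to -0.86 over 15 alternative settings, and the call was lost in 9 of them, leaving out tag 9 among them (-0.88). The other members included Cd14 (log2 fold 0.58 ± 0.32, higher in 3 of 3 tags) and Tlr13 (0.49 ± 0.22, 3 of 3 tags), which were not called. Accessory genes were 1 higher and 2 lower of 10. The lower ones were Dnase1l3, with 1 molecule against 374 (ratio 46.4, exact counting interval 8.28 to 1837), and Ly86, a partner of the surface receptor Cd180 (236, 173 and 191 against 511, 692 and 738 CPM, log2 fold -1.54 ± 0.19). Tlr12 was listed with 0 molecules against 94, which is 3.89-fold lower against the limit of 3 counts. Its call was lost in 7 of 14 settings, among them leaving out tag 8, 9 or 10 (edgeR adjusted p of 0.0865, 0.150 and 0.347). Tlr1, a partner of Tlr2, stood at 19.0, 7.41 and 15.0 against 38.9, 33.7 and 36.4 CPM (-1.23 ± 0.29, call lost with doubled marker minimums and without tag 9, edgeR adjusted p = 0.116, or tag 10, 0.071). Of 9 transcription factors Irf8 was called (63.7, 96.3 and 129 against 172, 269.5 and 209.9 CPM, -1.002 ± 0.23), also on the 2-fold line and lost in 8 of 15 settings, leaving out tag 8 (-0.89) or tag 9 (-0.79) among them. Of 10 negative regulators, Irak3, an inactive IRAK family member, was higher (84.0, 46.9 and 46.6 against 38.0, 29.7 and 24.4 CPM, 1.12 ± 0.27), but not without tag 8 (0.94, edgeR adjusted p = 0.0734), without factors (0.98) or with a C1q line of 20 molecules (0.90). No adaptor or kinase was called of 16 by edgeR or DESeq2, with 2 at an unadjusted p under 0.05.

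As a share of all molecules, neutrophils held more Tlr13, Tlr4 and Cd14 than monocytes and less Tlr7. Their median depth was 2150 molecules against 5266 in monocytes, so the folds are not amounts per cell. Cd14 had 6884 molecules in 425 neutrophils against 9726 in 647 monocytes. Tlr13 was 5.76-fold higher (log2 fold 2.53 ± 0.23, edgeR adjusted p = 3.86e-11), Tlr4 5.09-fold (2.35 ± 0.38, 4.54e-06) and Cd14 3.95-fold (1.98 ± 0.33, 8.41e-06), each in 3 of 3 tags. Tlr7 was 4.39-fold lower (-2.13 ± 0.50, edgeR adjusted p = 0.000782) in 3 of 3 tags. These 4 of 8 members compare with 34.3% of all genes called, 14.7% higher and 19.6% lower, so the share of members called is not far from that of all genes. Tlr2 had a log2 fold of 0.74 ± 0.22 and an edgeR adjusted p of 0.00608, under the 2-fold line. Tlr3 had 0 molecules against 12, and no fold can be given at this depth. Scaling matters in this contrast: the median log2 fold of all genes was -0.28 with TMM factors, -0.96 without factors and -0.18 with RLE factors, and 42.8%, 16.4% and 48.7% of the calls were higher. Without factors Tlr3 was also called lower (edgeR adjusted p = 0.0216), Unc93b1 moved from -0.35 to -1.03 and was called lower, and Myd88, not called, changed sign from 0.50 to -0.18. Tlr13, Tlr4 and Cd14 then had log2 folds of 1.86, 1.67 and 1.33, and Tlr7 one of -2.81. These 4 were called in every setting in which they passed the count filter, and at 1000 molecules per cell Tlr4 and Tlr7 did not pass it.

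Genes from each of the 5 other lists were also called between neutrophils and monocytes, where 34.3% of all genes were called. Tlr6, the other partner of Tlr2, stood at 127, 179 and 135 against 20.8, 21.0 and 21.8 CPM (log2 fold 3.42 ± 0.30), the 1 called of 4 other Toll-like receptors. Of 10 accessory genes, 0 were higher and 5 lower. Among these were Ly86 (46.1, 26.9 and 61.6 against 456, 541 and 639 CPM, -2.87 ± 0.26) and the endosomal nuclease Pld4 (46.1, 31.4 and 21.5 against 276, 258 and 242 CPM, -2.21 ± 0.25). Of 16 adaptors and kinases 3 were higher and 1 lower, but 1 higher and 5 lower without factors. The kinase Irak2 stood at 522, 691 and 576 against 213, 307 and 251 CPM (1.88 ± 0.20), and Ticam1, the adaptor of Tlr3, had 2 molecules against 105 (ratio 15.3 lower, counting interval 4.13 to 128). Irf8 was lower (15.4, 58.3 and 15.4 against 126, 227 and 173 CPM, -2.09 ± 0.36), and Relb, an NF-kB subunit, higher (69.1, 112 and 89.3 against 54.9, 69.9 and 52.8 CPM, 1.22 ± 0.25), of 9 transcription factors. Relb was not called without factors (0.54), and then 0 factors were higher and 2 lower. Of 10 negative regulators, 6 were higher and 0 lower with TMM factors, and 3 were higher and 1 lower without factors. The phosphatase Dusp1 stood at 4529, 4021 and 4993 against 1036, 972 and 1532 CPM (2.62 ± 0.21), and Irak3 at 94.0, 103 and 73.9 against 30.3, 48.0 and 23.9 CPM (2.05 ± 0.31). Without factors the log2 folds of Tlr6, Ly86, Pld4, Irak2, Irf8, Dusp1 and Irak3 were 2.75, -3.55, -2.90, 1.21, -2.76, 1.95 and 1.38.

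The conventional dendritic subsets differed in Tlr3, Tlr2 and Cd14. In cDC1, Tlr3 was 15.4-fold higher than in cDC2 (log2 fold 3.94 ± 0.45, edgeR adjusted p = 3.39e-07, 3 of 3 tags), and without tag 8 its log2 fold was 4.79. Tlr3 passed the count filter over all gates only through its cDC1 tags, as no tag of another tested gate exceeded 9.68 CPM. Its test is therefore not independent of the level that admitted it. Tlr2 and Cd14 went the other way, with Tlr2 3.07-fold lower (-1.62 ± 0.31, edgeR adjusted p = 0.0002) and Cd14 2.65-fold lower (-1.41 ± 0.36, edgeR adjusted p = 0.00452), each in 3 of 3 tags. These are 3 of 8 members, where 12.0% of all genes were called, 5.18% higher and 6.84% lower. The Cd14 call was lost when cells with any T cell molecule were left out (-1.10, edgeR adjusted p = 0.0557). Tlr4 had 4 molecules against 3 (log2 fold -0.18 ± 1.07) and was not called. Unc93b1 had a log2 fold of 0.67 ± 0.19 and an edgeR adjusted p of 0.00967, under the 2-fold line. Tlr11, an endosomal receptor for microbial profilin, had 77 molecules in cDC1 (53.6, 32.1 and 29.1 CPM) against 1 in cDC2, a ratio of 50.6 with a counting interval of 8.82 to 2026. Tlr1 was lower (2.82, 1.40 and 1.82 against 23.3, 4.74 and 17.8 CPM, -2.89 ± 0.61). Dnase1l3 had 267 molecules (114, 174 and 111 CPM) against 1, and Cd36 stood at 117, 121 and 129 against 21.0, 9.47 and 35.7 CPM (2.49 ± 0.54), in an accessory list with 2 higher and 1 lower of 10. Irf8, the factor that specifies cDC1, stood at 1006, 1111 and 852 against 252, 178 and 145 CPM (2.33 ± 0.23). Nfkb1 was lower (162, 186 and 165 against 625, 659 and 546 CPM, -1.86 ± 0.17), in a list with 1 factor higher and 2 lower of 9. Of 16 adaptors and kinases, the ubiquitin ligase Traf3 was called lower (24.0, 25.1 and 25.4 against 53.6, 42.6 and 55.8 CPM, -1.06 ± 0.29). Its call was lost without tag 8 (edgeR adjusted p = 0.0679) or tag 10 (0.0892) and with no T cell molecule allowed, and at 1000 molecules per cell its direction turned (log2 fold 0.23). No negative regulator of 10 was called by edgeR or DESeq2, with 4 at an unadjusted p under 0.05.

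**Figure D3:**
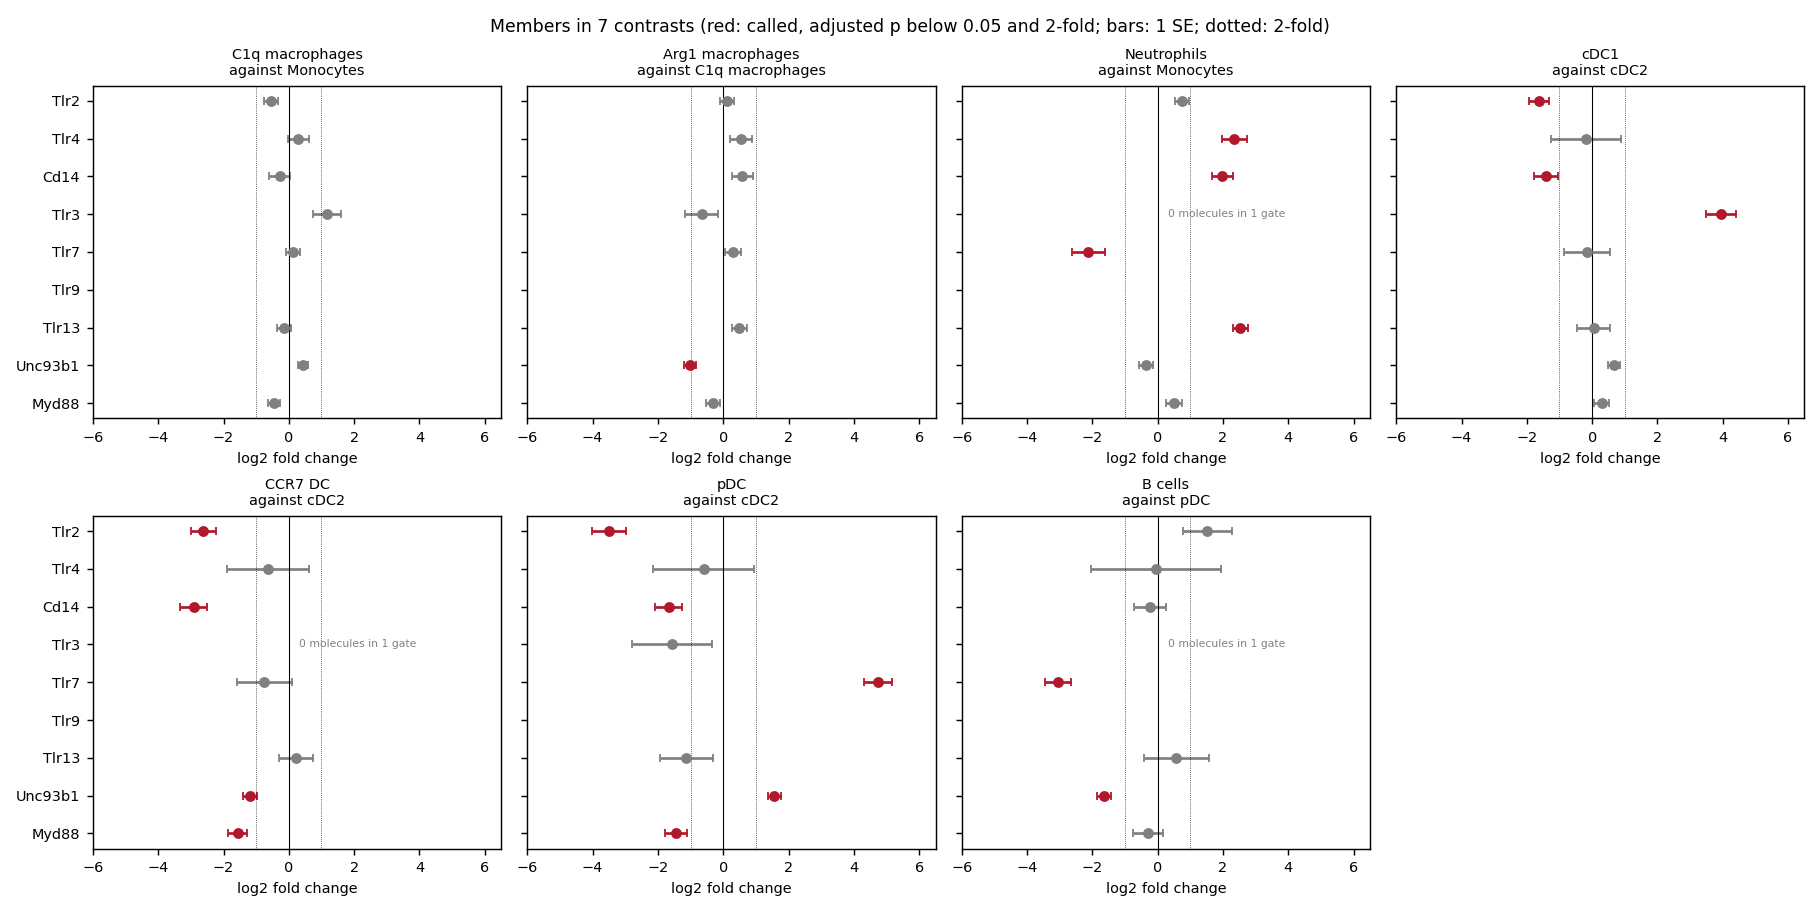
Fitted log2 fold (x axis, bars of 1 SE) of each member in the 7 contrasts, red where called and grey where not, with dotted lines at 2-fold. Tlr9 was not tested, and where a gate held no molecule no fold is drawn. The red points lie on both sides of 0 in neutrophils, cDC1 and pDC, and all lie left of it in CCR7 DC.

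CCR7 DC, the mature dendritic cells, held less Tlr2, Cd14, Unc93b1 and Myd88 than cDC2. Cd14 was 7.57-fold lower (log2 fold -2.92 ± 0.42, edgeR adjusted p = 7.55e-07), Tlr2 6.16-fold (-2.62 ± 0.38, 9.46e-07), Myd88 2.95-fold (-1.56 ± 0.29, 4.78e-05) and Unc93b1 2.29-fold (-1.19 ± 0.22, 5.77e-05), each in 3 of 3 tags. Tlr3 was also called, from 0 molecules against 6, which is 2.40-fold lower against the limit of 3 counts. That call was lost without any 1 of the tags (edgeR adjusted p of 0.257, 0.0541 and 0.0538 without tags 8, 9 and 10). In all 5 of 8 members were called lower and 0 higher, where 27.1% of all genes were called and 13.7% called lower. The Myd88 call was lost at 1000 molecules per cell (-1.38, edgeR adjusted p = 0.121). Tlr4 had 2 molecules against 3 (log2 fold -0.64 ± 1.25) and was not called. No other Toll-like receptor of 4 was called by edgeR or DESeq2, and 0 had an unadjusted p under 0.05. Accessory genes were 2 higher and 3 lower of 10, with Dnase1l3 at 97 molecules against 1 (ratio 80.8, counting interval 14.2 to 3224) and Cd180 at 6.75, 15.0 and 2.003 against 65.3, 80.5 and 87.0 CPM (-3.14 ± 0.38). The Cd180 fold was -3.85 without tag 9, and its call was lost at 1000 molecules per cell (-1.70). Among the signalling genes, Traf3 stood at 137, 169 and 182 against 53.6, 42.6 and 55.8 CPM (1.85 ± 0.23), and the phosphoinositide kinase adaptor Pik3ap1 had 3 molecules against 17 (ratio 6.80 lower, counting interval 1.97 to 36.2, call lost without tag 8 or 10, edgeR adjusted p of 0.0708 and 0.0897), in a list with 3 higher and 2 lower of 16. Irf8 (1122, 1291 and 1290.1 against 252, 178 and 145 CPM, 2.86 ± 0.23) and Relb (549.8, 513 and 619 against 86.3, 104 and 105 CPM, 2.69 ± 0.20) led the 3 of 9 transcription factors that were higher, and 0 were lower. Of 10 negative regulators 2 were higher, the ligase Rnf216 (1.21 ± 0.38) and the cytokine suppressor Socs1 (1.17 ± 0.37), and 0 lower. The Rnf216 call was lost without tag 9 (edgeR adjusted p = 0.138) or tag 10 (0.0698), and the Socs1 call without tag 8 (0.289) or tag 10 (0.107) and without factors (log2 fold 0.99).

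Plasmacytoid cells held more Tlr7 and its chaperone than cDC2 and less Tlr2, Cd14 and Myd88. Tlr7 was 26.7-fold higher (log2 fold 4.74 ± 0.42, edgeR adjusted p = 4.75e-11) and Unc93b1 2.96-fold higher (1.57 ± 0.19, 7.52e-08), in 3 of 3 tags. Tlr2 was 11.4-fold lower (-3.51 ± 0.53, edgeR adjusted p = 2.54e-06), Cd14 3.19-fold (-1.67 ± 0.41, 0.00173) and Myd88 2.71-fold (-1.44 ± 0.34, 0.00109), also in 3 of 3 tags. In all 2 of 8 members were higher and 3 lower, where 23.5% of all genes were called, 10.8% higher and 12.7% lower. The count fell to 3 without tag 8, where Cd14 (-1.19, edgeR adjusted p = 0.0783) and Myd88 (-1.09, 0.0726) were no longer called. Without tag 8, Tlr2 stood at -2.68 and Tlr7 at 5.59, both still called. Tlr4, with 1 molecule against 3, was not called. Cd14 moved to -2.95 without tag 10, the tag with the high Cxcl2 level in pDC. Tlr12, a receptor of the Tlr11 group, had 34 molecules (44.4, 74.5 and 59.8 CPM) against 0, and Tlr1 had 0 against 20. Against the limit of 3 counts, Tlr12 was 25.6-fold higher and Tlr1 2.95-fold lower. Of 10 accessory genes 5 were higher and 0 lower. They were led by Dnase1l3, with 49 molecules against 1 (ratio 111, counting interval 19.0 to 4466), and Pld4, at 1037, 1176 and 1005 against 233, 263 and 176 CPM (2.02 ± 0.18). Irf8 was higher (1995, 2181 and 2119 against 252, 178 and 145 CPM, 3.20 ± 0.23) and Rel lower (163, 106 and 190.2 against 741, 929 and 876 CPM, -2.71 ± 0.22), of 1 higher and 5 lower among 9 transcription factors (2 higher and 3 lower without factors). Negative regulators were 0 higher and 4 lower of 10, with Dusp1 at 54.3, 160.0 and 272 against 639, 812 and 879 CPM (-2.54 ± 0.26) and the deubiquitinase Tnfaip3 at 202, 170.2 and 299 against 622, 791 and 789 CPM (-1.96 ± 0.24). Tirap, the bridging adaptor of Tlr2 and Tlr4, had 1 molecule against 16 (ratio 7.07 lower, counting interval 1.10 to 297), the 1 called of 16 adaptors and kinases. That call was lost in 7 of 14 settings, among them leaving out tag 8, 9 or 10 (edgeR adjusted p of 0.150, 0.0598 and 0.191). The cDC2 gate is the comparator in these 3 dendritic contrasts, so they are not independent of each other. That gate also held the highest G0s2, Mmp9 and Il1r2 sum of the dendritic gates, as given above.

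B cells, the other class known for nucleic acid receptors, had less Tlr7 and Unc93b1 than pDC. Tlr7 was 8.36-fold lower (log2 fold -3.06 ± 0.40, edgeR adjusted p = 2.07e-07) and Unc93b1 3.12-fold lower (-1.64 ± 0.21, 2.49e-07), each in 3 of 3 tags. These were 2 of 8 members, both lower, where 22.2% of all genes were called, 9.63% higher and 12.5% lower, so the members' share is near the background. Tlr2 had 24 molecules against 8 (1.51 ± 0.75, edgeR adjusted p = 0.135) and was not called. It was called higher with doubled marker minimums (2.28, edgeR adjusted p = 0.0456) and with at most 10% mitochondrial molecules (2.56, 0.0225). Tlr1 had 19 molecules (32.8, 40.3 and 22.3 CPM) against 0, and Tlr12 had 0 against 34. Against the limit of 3 counts, Tlr1 was 6.13-fold higher and Tlr12 11.7-fold lower. Accessory genes were 0 higher and 4 lower of 10, with Pld4 at 59.7, 32.3 and 29.8 CPM (-4.54 ± 0.26, -5.14 without tag 8) and Cd180 at 35.8, 24.2 and 29.8 against 247, 218 and 152 CPM (-2.66 ± 0.34). Tirap had 17 molecules against 1 (ratio 16.5, counting interval 2.58 to 688), the 1 called of 16 adaptors and kinases, lost without tag 8 (edgeR adjusted p = 0.0837) or tag 10 (0.0633). Rel was higher (806, 839 and 647 CPM, 2.33 ± 0.23) and Irf8 lower (322, 484 and 253 CPM, -2.57 ± 0.24), of 3 higher and 2 lower among 9. Negative regulators were 4 higher and 0 lower of 10, with Irak3 at 51 molecules against 3 (ratio 16.5, counting interval 5.32 to 82.4) and Rnf216 at 53.7, 80.7 and 66.9 against 29.6, 16.0 and 21.7 CPM (1.504 ± 0.48). The Rnf216 call was lost without tag 9 (edgeR adjusted p = 0.121) or tag 10 (0.0785) and with at most 10% mitochondrial molecules.

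**Figure D4:**
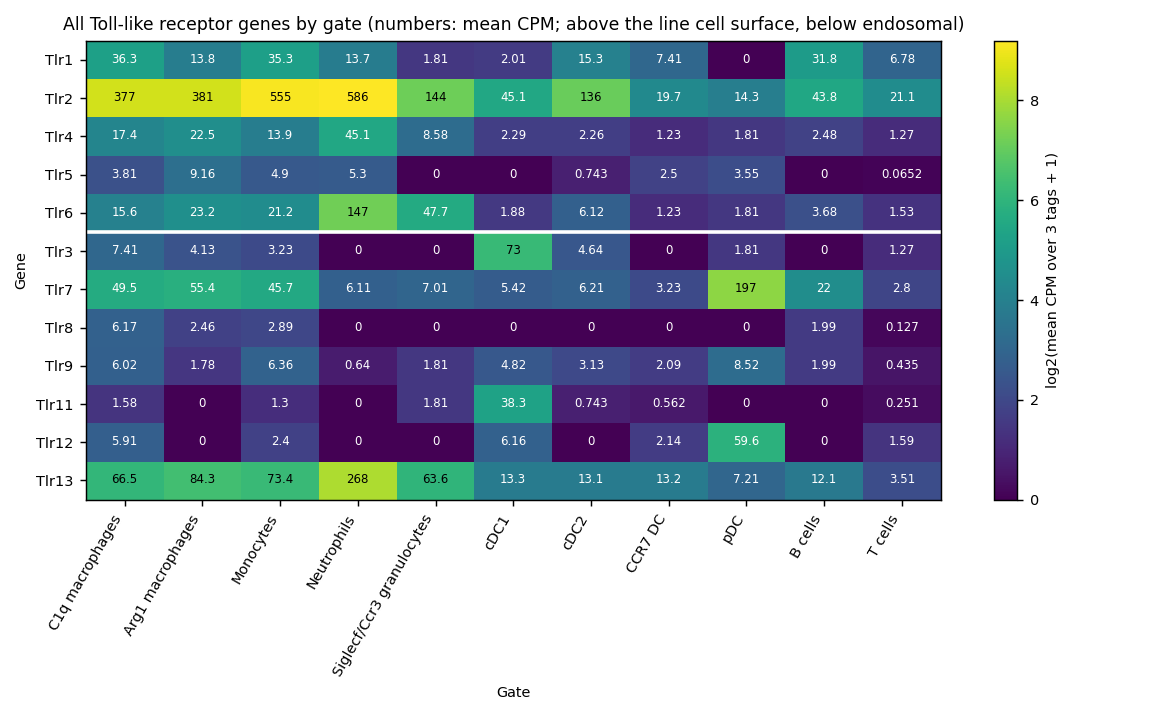
Mean CPM over the 3 tags (number in each cell, colour on a log2(CPM + 1) scale) of all 12 Toll-like receptor genes in 11 gates, with cell surface receptors above the white line and endosomal ones below. Tlr6 at 147 CPM joins Tlr2, Tlr4 and Tlr13 in neutrophils, Tlr11 joins Tlr3 in cDC1 and Tlr12 joins Tlr7 in pDC, and values compare along a row and not down a column.

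Across all 7 contrasts 20 member calls were made, and 14 of them held in every alternative setting in which the gene was tested. For 5 of these 14, namely Tlr3 in cDC1, Tlr4 and Tlr7 in neutrophils and Tlr7 in pDC and in B cells, that was 14 of 15 settings, since the gene fell under the count filter at 1000 molecules per cell. The calls lost in at least 1 setting were Unc93b1 in Arg1 macrophages, Cd14 in cDC1 and in pDC, Myd88 in CCR7 DC and in pDC, and Tlr3 in CCR7 DC. The median log2 fold of the tested members was -1.38 in CCR7 DC and -1.29 in pDC against medians of -0.02 and -0.05 over all genes. In neutrophils it was 0.62 against -0.28.

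As a description over the 11 gates, with levels as log2(mean CPM + 10), Pearson's r between members was 0.97 for Tlr4 and Tlr13, 0.96 for Tlr2 and Cd14 and 0.93 for Cd14 and Tlr13. It was 0.74 for Tlr7 and Unc93b1, and 0.05 for Tlr13 and Unc93b1. The points share 1 capture, 1 library and the free RNA of all cells. Among 9126 genes, those most like Tlr2 were Sirpb1c (r = 0.99), Slfn2 (0.97) and Arl5b (0.97), and those most like Cd14 were Pilra (0.98), Igsf6 (0.98) and the inflammasome sensor Nlrp3 (0.98). Gpr84 was among the nearest 3 of both Tlr4 (0.98) and Tlr13 (0.98), beside F3 (0.98) and Kcnj2 (0.97) for Tlr4 and Ccrl2 (0.98) and Il1rn (0.97), the interleukin-1 receptor antagonist, for Tlr13. Tlr3 was nearest to Gpr141b (0.94), Sema4f (0.92) and the integrin Itgae (0.89). Tlr7 was nearest to the lysosomal cholesterol transporter Npc1 (0.92), Hdac5 (0.91) and Pex5 (0.91), and genes near Unc93b1 included Mfsd12 (0.90) and Mknk1 (0.89). Myd88 was nearest to Anks1 (0.93), Rasgrp4 (0.92) and Slc36a3os (0.91), and Tlr9, from few molecules, to Tor3a (0.94), Armcx3 (0.93) and Pld4 (0.92). Some of these neighbours depended on the constant added. With levels as log2(mean CPM + 1), Gpr84 and F3 gave way to C5ar1 (0.97) and Cxcl2 (0.97) for Tlr4, and Gpr84 to Mcl1 (0.97) for Tlr13. All 3 genes nearest to Tlr3 were replaced, by Fam168a (0.90), BC028528 (0.89) and Cycs (0.86). Pex5, Armcx3 and Mknk1 also left the lists of Tlr7, Tlr9 and Unc93b1, while Tlr2, Cd14 and Myd88 kept their genes.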

How the data were processed

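Per the file headers, the authors ran version 1.9.1 of BD's Rhapsody pipeline for multiplexed whole transcriptome libraries, which gives counts of unique molecules in each cell, and aligned to GRCm38 with the vM19 release of GENCODE. GRCm39 is named instead in the submitters' processing notes, and the header was followed. These deposited whole-number counts were used as they are, with the deposited tag call of each cell (1448 multiplet and 361 undetermined cells left out). Doublets of 1 tag were limited only by gates that allow at most 1 T cell and, outside B cells, 1 B cell molecule. The members, gates and gene lists were chosen with earlier results of these data known.

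Cells were gated on raw counts of other genes, and molecules were summed per tag and gate. The 11 gates with at least 20 cells in every tag gave 33 samples in 1 edgeR 4.0.16 fit (R 4.3.3, filterByExpr, TMM factors, gate plus tag), with Benjamini-Hochberg adjustment over 8456 genes. NK cells and melanoma cells fell under 20 cells in a tag and were not tested. The tag was a block because all gates of a tag come from the same mice. The fit was tested on simulated counts. Levels are CPM with exact Poisson 95% intervals, shares have Clopper-Pearson 95% intervals, and thinning used a fixed seed. Alternatives changed the scaling (no factors, RLE, DESeq2 1.42.0), the count filter, the block, the tags, the gates, the cell filters and the depth. Named genes are all members, the 2 of each list with the largest called fold in a contrast, and the 3 genes most like each member among those with at least 300 molecules, of which 1 is not reported here. Of 15 accessory genes in the list, 14 were found. Genes named in the check of the gates come from the fixed marker list. Tables were made with pandas 2.3.3 and numpy 2.4.6 under Python 3.11.15, intervals with scipy 1.17.1 and plots with matplotlib 3.10.9.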

Additional observations from a re-analysis of the deposited data

How the results depend on the processing

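Over 15 alternative settings, 277 of 294 called values of members kept their call, and the 28 changes of sign were all of members that were not called. The count of members called in Arg1 against C1q macrophages, 1 with the settings of the report, was 0 with RLE factors, with DESeq2, with a C1q line of 5 or 20 molecules, with doubled marker minimums, with no T cell molecule allowed, with at most 10% mitochondrial molecules and at 1000 molecules per cell. At 1000 molecules per cell, the counts were 2 in neutrophils against monocytes, 3 in CCR7 DC against cDC2, 3 in pDC against cDC2 and 1 in B cells against pDC. Leaving out 1 tag at a time gave 0 to 1 in Arg1 macrophages, 3 to 5 in pDC (3 without tag 8), 4 to 4 in CCR7 DC and neutrophils, 3 to 3 in cDC1, 2 to 2 in B cells and 0 to 0 in C1q macrophages. Without the replicate block, the counts of members called stayed at 0, 1, 4, 3, 5, 5 and 2 in the 7 contrasts in the order of the report, and the calls among all genes moved most in Arg1 macrophages, from 443 to 403. Some of these settings hold fewer molecules, cells or tags, and the cause of each change was not tested.

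Calls among all genes moved by more than 1.5 times at 1000 molecules per cell, to 145 in C1q macrophages, 191 in Arg1 macrophages, 1275 in neutrophils, 265 in cDC1, 784 in CCR7 DC, 612 in pDC and 830 in B cells. They also moved to 592 in C1q macrophages without a count filter and to 1231 in B cells without tag 8. Without scaling factors, the share of calls that were higher moved from 46.0% to 30.9% in Arg1 macrophages, from 49.5% to 38.8% in CCR7 DC and from 46.0% to 60.3% in pDC, beside the shift in neutrophils given above. The median log2 fold of all genes then moved from -0.07 to -0.21, from -0.02 to -0.19 and from -0.05 to 0.17.

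The values that changed sign were as follows. Without factors, Tlr2 in Arg1 macrophages stood at -0.0275 and Myd88 in neutrophils at -0.18. At 1000 molecules per cell, Tlr2 in Arg1 macrophages stood at -0.10, Myd88 in neutrophils at -0.0770, Tlr13 in pDC at 0.53 and Myd88 in B cells at 0.71. Leaving out 1 tag at a time, Tlr2 in Arg1 macrophages ran from -0.0901 (without tag 8) to 0.37, Tlr4 in cDC1 from -0.67 to 0.0710 (without tag 8), Tlr7 in cDC1 from -0.53 to 0.66 (without tag 8), Tlr7 in CCR7 DC from -2.85 to 0.42 (without tag 8), Tlr4 in pDC from -3.62 to 0.0021 (without tag 8) and Tlr4 in B cells from -0.19 to 0.49 (without tag 8). Tlr13 in cDC1 ran from -0.64 (without tag 9) to 0.53, Tlr7 in C1q macrophages from -0.0687 (without tag 10) to 0.30 and Cd14 in B cells from -0.60 to 0.72 (without tag 10). With doubled marker minimums, Tlr7 stood at -0.0148 in C1q macrophages, 0.73 in cDC1 and 0.15 in CCR7 DC, and Tlr4 at 0.73 in cDC1 and 0.27 in B cells. With no T cell molecule allowed, Tlr7 stood at 1.03 in cDC1 and 0.39 in CCR7 DC, and Tlr13 at -0.0690 in cDC1 and -0.43 in B cells. With DESeq2, Tlr4 in B cells stood at 0.11, with a C1q line of 20 Cd14 in B cells at 0.11, and with at most 10% mitochondrial molecules Tlr4 and Cd14 in B cells at 0.48 and 0.0160. The smallest adjusted p among them was 0.324.

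The capture gives 3 tags of unnamed genotype and no second library. Depth limits Tlr9, which held 199 molecules, and Tlr3 and Tlr4 outside the gates where they were highest. No result speaks of protein or of response to a ligand.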

Other observations

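The melanoma gate, a set of 56 deep cells (median 66434 molecules) that passed the CD45 sort and held Dct, Mitf and Sox10, carried Tlr4 at 11.3, 22.9 and 19.0 CPM in tags 8, 9 and 10, from 55 molecules. Tag 9 lies in the range of Arg1 macrophages and above every tag of C1q macrophages (highest 19.8 CPM) and monocytes (16.0). Tag 10 lies in the range of both macrophage gates and above every monocyte tag. Tag 8 lies under the lowest tag of each of these gates (12.3 CPM in monocytes). In the melanoma gate Cd14 stood at 20.3, 16.4 and 15.0 CPM and Myd88 at 9.04, 4.36 and 6.99 CPM, under the T cell levels of both genes. Tlr3 stood at 6.03, 7.63 and 4.99 CPM there, from 20 molecules, and Tlr2 at 6.03, 0 and 0.998 CPM. Unthinned, 28 of the 56 melanoma cells held a Tlr4 molecule, and at 1000 molecules per cell 0 of 56 did. Too few cells per tag were present for a test.

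The 31 NK cells held 6, 15 and 10 cells in the tags, with 2 Tlr2 molecules, 1 Tlr7 molecule and 0 Tlr3 and Tlr9 molecules, and give no level that can be read. The 4299 cells in no gate held 31.4% of the Tlr2 molecules, 24.3% of the Tlr7 molecules and 14.9% of the Tlr3 molecules.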
